A study of Mus musculus with 12 samples.

Results

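The comparison set RNA from bone marrow-derived dendritic cells (BMDCs) of mice labelled Pde5 knockout beside BMDCs of wild-type (WT) mice, all given lipopolysaccharide (LPS). It used 4 of the 12 libraries of the series, 2 per genotype label, and all 13072 genes with enough counts for a test out of 32190 symbols. The 4 groups of BMDCs were WT without LPS, Pde5-/- without LPS, WT with LPS at 200 ng/ml for 12 h, and Pde5-/- with the same LPS. The unstimulated groups, another 4 libraries, entered the same fit and are set beside the LPS libraries where they bear on them. The remaining 4 libraries are of dendritic cells sorted from tumors and were not used here. The labels give bone marrow as the tissue, immune cells as the cell type and a time of 9 days. The strain, the culture cytokines, the deleted part of Pde5a and whether libraries of a group came from separate mice or cultures are not given there or elsewhere in the sources used. The p-values therefore measure the spread between libraries, which may be technical.

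Dendritic cells present antigen to T cells, and LPS matures them through Toll-like receptor 4 (TLR4), which turns on cytokines, costimulatory ligands and interferon-stimulated genes. PDE5, the product of Pde5a, degrades cyclic GMP, the second messenger that guanylyl cyclases make in response to nitric oxide or natriuretic peptides. Activated dendritic cells also take up more glucose and ferment more of it to lactate. Many genes of that pathway are targets of hypoxia-inducible factor (HIF), whose alpha subunit is marked for degradation by oxygen-dependent prolyl hydroxylases such as the product of Egln3.

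Total counts ranged from 16.1 to 19.7 M over the 8 BMDC libraries. Dendritic cell genes were present in all 4 LPS libraries: Zbtb46, a transcription factor of conventional dendritic cells, stood at 268 and 255 CPM (gene counts scaled for library size) in WT and 246 and 267 CPM in knockout-labelled libraries, and 13 of 13 core dendritic cell genes were tested. Pde5a itself (chromosome 3, 122729158 to 122859374 in GRCm38, gene identifier 242202) was counted 52 and 20 times in the WT LPS libraries and 22 and 43 times in the knockout-labelled ones. These counts overlap (log2 fold change -0.11, SE 0.51), so they do not separate the labels, and without the deleted exons being known they do not test them either. The genotype is therefore given as labelled. The unstimulated knockout-labelled libraries stood apart from the unstimulated WT ones: their log2 CPM correlated with those of the LPS libraries at 0.9698 to 0.9863 and with those of unstimulated WT at 0.9393 to 0.9705 (Pearson, across genes, which are not independent). Results that rest on them, the differences without LPS and the interaction, are given apart from those of the LPS libraries, and without the unstimulated libraries the LPS comparison called 0 genes, as it did with them.

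With LPS, genes of glycolysis and other HIF targets were the group that lay furthest from 0, higher in both knockout-labelled libraries, while lysosomal, antioxidant and macrophage genes lay lower. No single gene passed. EdgeR's quasi-likelihood test with Benjamini-Hochberg adjustment called 0 of 13072 genes (0%), the smallest adjusted p being 0.166, and limma-voom called 0. At an unadjusted p under 0.05 stood 1330 genes (10.2%), 697 of them higher (5.33%) and 633 lower (4.84%) in the knockout-labelled libraries. DESeq2 called 150 genes (1.15%), 113 higher (0.864%) and 37 lower (0.283%), and all 150 had an unadjusted edgeR p under 0.05. In 2960 genes (22.6%) both knockout-labelled libraries lay above both WT libraries, and in 3046 (23.3%) both lay below. These shares are the background against which the counts of each group below are read. The median log2 fold change over all genes was -0.0078. On the first principal component of the 4 libraries (53.6% of the variance) the labels separated, with WT at -31.87 and -10.87 and the knockout label at 37.36 and 5.38. On this component the knockout-labelled library 1 and the WT library 1 were thus the 2 extremes, and the inner 2 libraries lay closer to each other than to their own group's other library. On the second component (26.2%) the inner 2 lay apart, WT library 2 at -29.47 and knockout-labelled library 2 at 12.63.

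**Figure D1:**
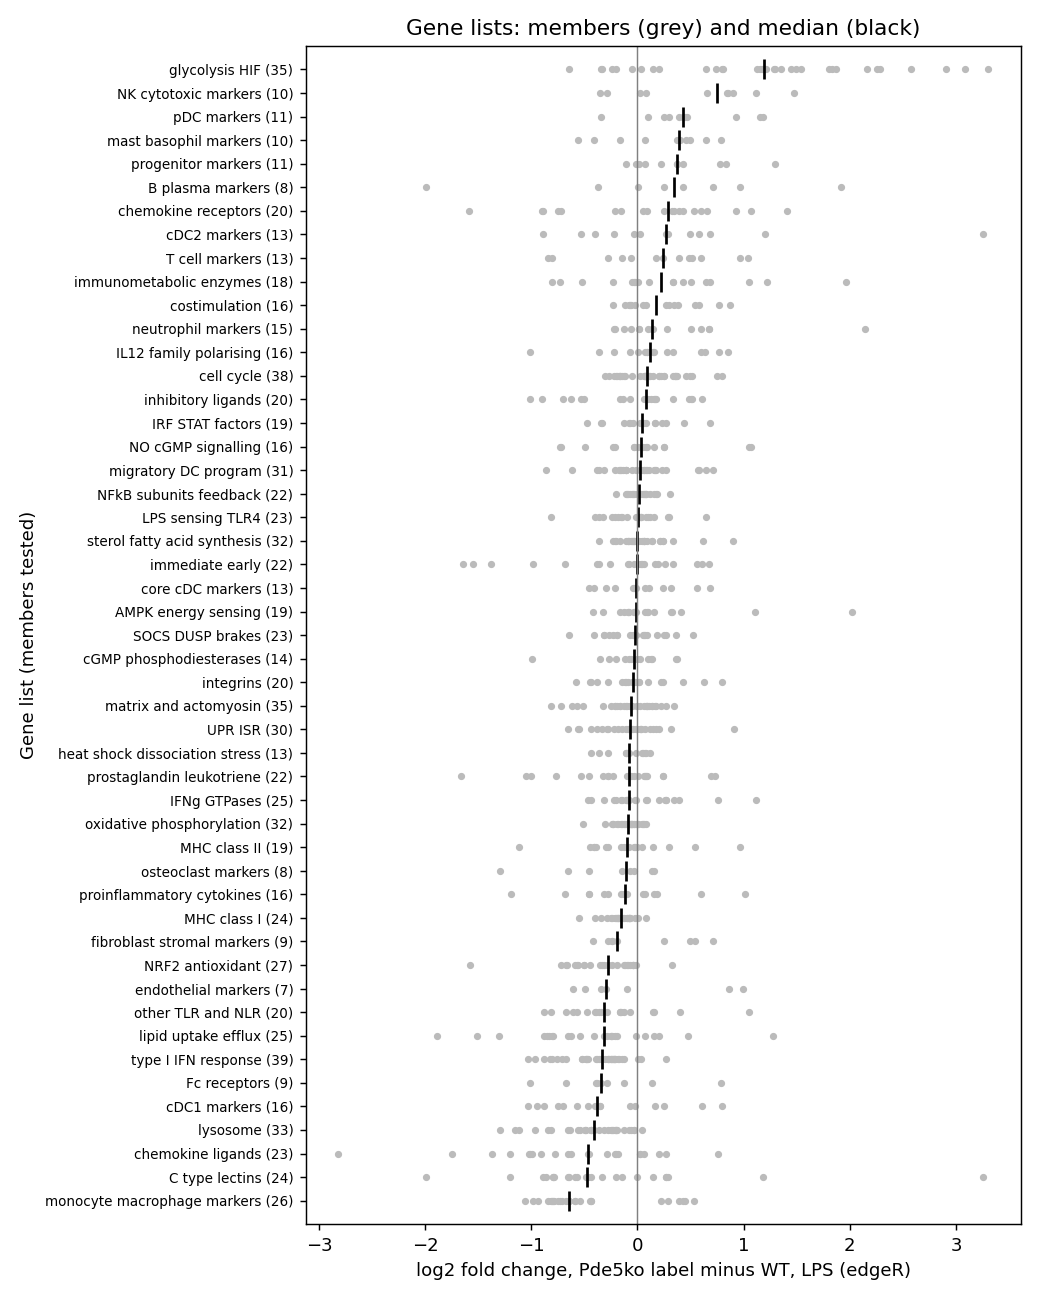
Each row is a gene list with the number of members tested, grey points are the log2 fold changes of its members (knockout label minus WT, LPS) and black bars are the list medians. The glycolysis and HIF list lies furthest right with a median of 1.19, and the monocyte and macrophage list furthest left with a median of -0.64.

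Glycolysis and HIF genes were described for all 35 listed members. Of these, 25 had an unadjusted p under 0.05 in the higher direction and 1 in the lower, 26 had both knockout-labelled libraries above both WT libraries, 4 below and 5 overlapping, and DESeq2 called 25, all higher. The median log2 fold change was 1.19. Summed over the list, the level was 10270 and 10700 CPM in WT and 21210 and 15260 CPM in knockout-labelled LPS libraries. The count of 25 was 25 or 26 when any of the 4 libraries was left out, while the median ranged from 0.81 without knockout-labelled library 1 to 1.51 without knockout-labelled library 2. None of the 35 was called by edgeR.

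Before the values, the stretch upstream of the start is shown for 5 members, because one form of the core motif that HIF binds reads ACGTG. The sequences are those of RefSeq on GRCm38.p6, the 250 bases before the first listed start of each gene, 5′ to 3′ in the sense of the gene. Matches to ACGTG or its reverse complement CACGT are in capitals, and both forms overlap where the letters read CACGTG. Slc2a1 and Pgam1 were named by rule, Pgk1 shows 2 separate matches, Bnip3 shows both forms overlapping in CACGTG, and Tpi1 holds none.
Slc2a1, chr4:119108495-119108744, plus strand: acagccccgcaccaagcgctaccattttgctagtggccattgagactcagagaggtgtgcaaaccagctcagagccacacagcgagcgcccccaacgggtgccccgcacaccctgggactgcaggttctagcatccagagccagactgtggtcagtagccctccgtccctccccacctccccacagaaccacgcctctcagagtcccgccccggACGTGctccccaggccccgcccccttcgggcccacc
Pgam1, chr19:41911621-41911870, plus strand: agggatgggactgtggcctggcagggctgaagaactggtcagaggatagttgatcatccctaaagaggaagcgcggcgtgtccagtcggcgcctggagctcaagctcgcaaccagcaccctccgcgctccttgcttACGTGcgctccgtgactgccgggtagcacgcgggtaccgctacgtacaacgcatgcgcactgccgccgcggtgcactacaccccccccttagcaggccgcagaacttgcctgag
Pgk1, chrX:106186850-106187099, plus strand: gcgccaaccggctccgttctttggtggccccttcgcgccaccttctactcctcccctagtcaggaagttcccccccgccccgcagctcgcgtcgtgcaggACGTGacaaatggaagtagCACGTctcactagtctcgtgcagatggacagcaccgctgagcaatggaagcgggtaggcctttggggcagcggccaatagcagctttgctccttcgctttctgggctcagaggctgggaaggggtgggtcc
Bnip3, chr7:138909507-138909756, minus strand: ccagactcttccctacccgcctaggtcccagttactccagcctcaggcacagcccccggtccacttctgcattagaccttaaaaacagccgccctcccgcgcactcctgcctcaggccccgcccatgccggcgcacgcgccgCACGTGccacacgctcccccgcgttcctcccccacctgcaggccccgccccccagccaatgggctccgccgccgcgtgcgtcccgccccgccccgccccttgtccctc
Tpi1, chr6:124814159-124814408, minus strand: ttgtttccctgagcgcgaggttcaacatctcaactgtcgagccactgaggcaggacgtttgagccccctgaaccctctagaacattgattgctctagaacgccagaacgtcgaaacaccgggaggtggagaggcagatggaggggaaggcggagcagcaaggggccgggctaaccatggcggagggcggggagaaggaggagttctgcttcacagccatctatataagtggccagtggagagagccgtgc
The match begins 36 bases before the start in Slc2a1 and 114 bases before it in Pgam1. Such a match was found in 19 of the 33 list members with an entry (57.6%), in 14 of the 24 that were higher without overlap (58.3%) and in 5 of the 9 that were lower or overlapped (55.6%), against 2239 of 10301 tested genes (21.7%) and 4477 of 27025 genes with an entry (16.6%). Among the 87 genes with an entry that DESeq2 called higher, 31 held one (35.6%). This set is not separate from the list, of which DESeq2 called 25 members higher. A match is a string of letters and no measured binding site, and Tpi1, whose difference is given below with the others, had none in this window.

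**Figure D2:**
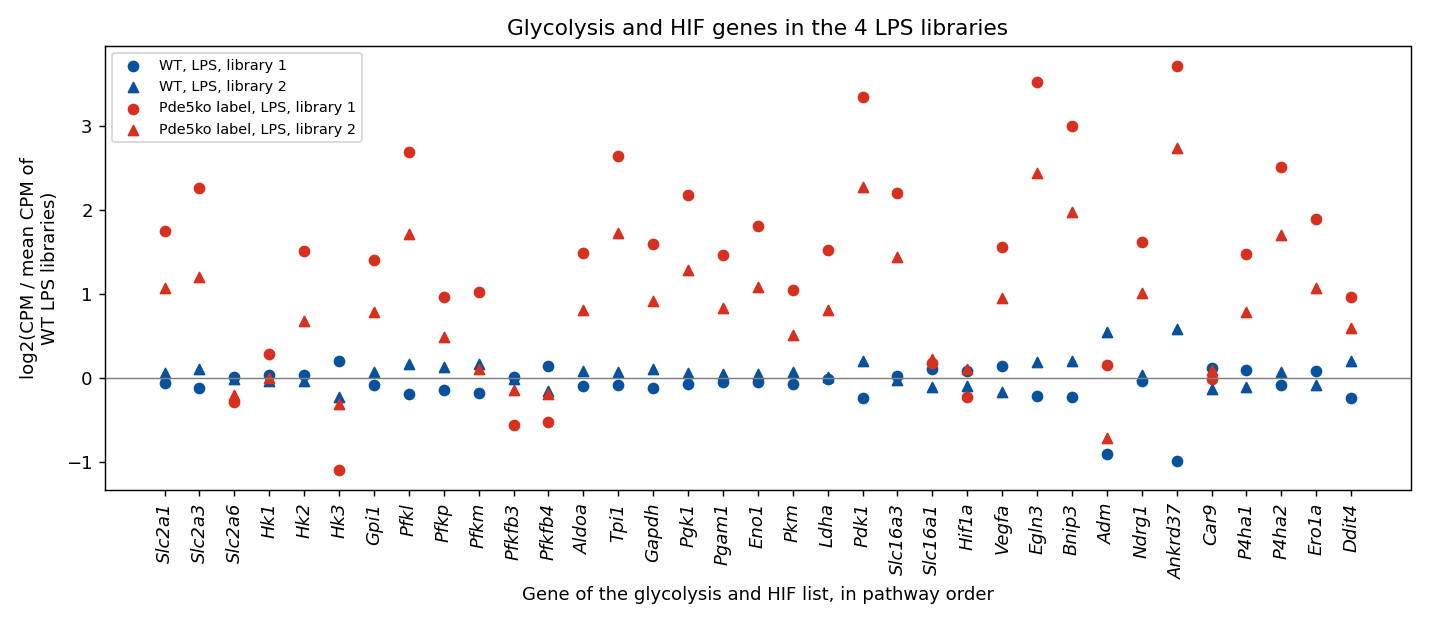
For each glycolysis and HIF gene the y axis gives the log2 ratio of a library's CPM to the mean CPM of the 2 WT LPS libraries; blue marks WT, red the knockout label, circles library 1 and triangles library 2. In 26 of 35 genes both red points lie above both blue ones, and the red circle (library 1) usually lies above the red triangle.

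Glucose enters through Slc2a1 and Slc2a3. In all pairs below joined by "against", libraries 1 and 2 of WT come first and libraries 1 and 2 of the knockout label second, all given LPS. Slc2a1 (chromosome 4, 119108745 to 119137330) stood at 41.8 and 45.4 CPM in WT and 146 and 91.6 CPM in knockout-labelled libraries (log2 fold change 1.45, SE 0.21, adjusted p = 0.166 in edgeR and 3.36e-08 in DESeq2). Slc2a3, the high-affinity transporter, stood at 6.95 and 8.11 against 36.2 and 17.3 CPM (log2 fold change 1.83, SE 0.35). Both thus lay higher without overlap, whereas Slc2a6, a lysosomal glucose transporter, was at 337 and 329.7 CPM in WT and 274 and 290.1 CPM under the knockout label. Hk2, the inducible hexokinase that traps glucose in the cell, stood at 54.4 and 52 against 151 and 85.3 CPM. The other hexokinases did not follow it, with Hk1 overlapping at 198 and 189.6 against 236 and 194 CPM and Hk3 lower at 209 and 155 against 85.3 and 147 CPM (log2 fold change -0.65, SE 0.26).

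Enzymes of the following steps lay higher, with exceptions among their regulators. Gpi1, the isomerase of glucose 6-phosphate, stood at 326 and 363 CPM in WT and 909 and 594 CPM in knockout-labelled libraries. Of the phosphofructokinases, which catalyse the committed step, Pfkl was at 57.4 and 73.6 against 423 and 214 CPM (log2 fold change 2.28, SE 0.41) and Pfkp at 162 and 196 against 348 and 252 CPM. Both forms lay higher without overlap. The muscle form Pfkm overlapped at 2.49 and 3.17 against 5.77 and 3.06 CPM, and Pfkfb3, which makes the activator of that step, lay lower at 3683 and 3608 against 2476 and 3311 CPM (unadjusted p = 0.157). Pfkfb4, of the same family, was at 21.7 and 17.7 against 13.7 and 17.3 CPM. The list is therefore not uniform at the level of its regulators.

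Aldoa, the main aldolase, stood at 790.0 and 891 CPM in WT and 2361 and 1470 CPM in knockout-labelled libraries. Aldoc (chromosome 11, 78323073 to 78327781), a further aldolase, outside the list and named by rule, stood at 2.32 and 5.12 against 24.9 and 16.1 CPM (log2 fold change 2.46, SE 0.34, adjusted p = 0.166 in edgeR and 2.59e-11 in DESeq2). Tpi1, which interconverts the triose phosphates, stood at 142 and 158 against 937 and 497 CPM (log2 fold change 2.25, SE 0.37). These 3 enzymes cover the splitting of the sugar and lay higher without overlap. Gapdh, often taken as a reference gene, was among them in direction, at 1163 and 1360 CPM in WT and 3807 and 2382 CPM under the knockout label (log2 fold change 1.29, SE 0.23). Pgk1, which makes the first ATP of the pathway, stood at 235 and 257 against 1113 and 602 CPM (log2 fold change 1.80, SE 0.30). Pgam1 (chromosome 19, 41911871 to 41918665), the mutase after it, stood at 143 and 152 against 407 and 262 CPM (log2 fold change 1.18, SE 0.18, adjusted p = 0.166 in edgeR and 2.65e-07 in DESeq2). Eno1, enolase, stood at 582 and 625 against 2112 and 1279 CPM, and Pkm, pyruvate kinase, at 1045 and 1149 against 2265 and 1570 CPM. Each enzyme from Gpi1 to Pkm thus had at least 1 form that lay higher without overlap. Several of them have many processed pseudogenes with which reads can be shared, so single values are uncertain to that extent.

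The fate of pyruvate was covered by 3 genes. Ldha, which reduces it to lactate, stood at 404 and 414 CPM in WT and 1176 and 715 CPM in knockout-labelled libraries (log2 fold change 1.21, SE 0.21). Slc16a3, the lactate exporter, stood at 115 and 112 against 525 and 308 CPM (log2 fold change 1.87, SE 0.35). Pdk1 (chromosome 2, 71873215 to 71903858), which switches off pyruvate dehydrogenase, stood at 8.43 and 11.5 against 102 and 48.4 CPM (log2 fold change 2.91, SE 0.44, adjusted p = 0.166 in edgeR and 4.3e-14 in DESeq2). Of these, Pdk1 lay furthest apart. Slc16a1, which carries lactate in either direction, differed little, at 7.42 and 6.41 against 7.85 and 8.06 CPM.

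HIF targets outside glycolysis lay the same way, while Hif1a itself did not separate the labels (195 and 173 CPM in WT, 157 and 198 CPM under the knockout label). Egln3, the HIF prolyl hydroxylase that HIF itself induces, stood at 5.28 and 7.02 against 70.8 and 33.3 CPM (log2 fold change 3.08, SE 0.50). Bnip3, a mitophagy receptor, stood at 12.2 and 16.5 against 115 and 56.3 CPM (log2 fold change 2.58, SE 0.45). Ankrd37, a small HIF target, was scarce at 0.475 and 1.4 CPM in WT and reached 12.3 and 6.25 CPM. Vegfa, the angiogenic factor, stood at 61.8 and 50.0 against 165 and 108 CPM, and Ndrg1 at 62.5 and 65.3 against 197 and 129 CPM. The collagen prolyl hydroxylases belong here too: P4ha1 stood at 61.2 and 53.1 against 159 and 98.3 CPM and P4ha2 at 17 and 18.9 against 103 and 58.3 CPM. Ero1a, the oxidase that forms disulfides in the endoplasmic reticulum, stood at 42.3 and 37.7 against 149 and 83.8 CPM. Adm and Car9, classical hypoxia genes in other tissues, were at under 4 CPM in every LPS library and overlapped. Ddit4, an inhibitor of mTORC1 that hypoxia induces, stood at 69.8 and 94.6 against 161 and 125 CPM. The 2 genes Ankrd37 and Slc16a3 overlap a neighbouring gene model, as do Tpi1, Pfkp and Pfkm, and the strand setting of the counting is unknown.

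Among the 10 genes with the smallest p in the higher direction, named by rule, were 2 of this list, Slc2a1 and Pgam1, and further metabolic genes. Ak4 (chromosome 4, 101416478 to 101467771), a mitochondrial adenylate kinase, stood at 1.72 and 1.46 CPM in WT and 51.1 and 21.6 CPM in knockout-labelled libraries (log2 fold change 4.51, SE 0.65, adjusted p = 0.166 in edgeR and 4.74e-17 in DESeq2). Plod2 (chromosome 9, 92539636 to 92608428), which hydroxylates collagen lysines, stood at 4.87 and 5.12 against 23 and 13.9 CPM (log2 fold change 1.88, SE 0.25, adjusted p = 0.166 in edgeR and 5.12e-07 in DESeq2). Grhpr (chromosome 4, 44981394 to 44990734), glyoxylate and hydroxypyruvate reductase, stood at 2.2 and 4.03 against 23.4 and 12.9 CPM (log2 fold change 2.55, SE 0.36, adjusted p = 0.166 in edgeR and 4.88e-09 in DESeq2). Zfp395, a zinc finger protein, stood at 2.91 and 4.88 against 18.4 and 10.6 CPM. In all 4 genes library 1 of the knockout label was the highest. The other 4 were Aldoc, given above, and 3 genes of other kinds. Cxcr5, the receptor for the B cell follicle chemokine CXCL13, stood at 23.9 and 23.7 against 57.4 and 42.8 CPM (log2 fold change 1.07, SE 0.17, adjusted p = 0.166 in edgeR and 0.000112 in DESeq2), and its gene overlaps Bcl9l. Ccr6, the receptor for CCL20, stood at 5.94 and 4.94 against 16.9 and 12 CPM (log2 fold change 1.41, SE 0.24). Cenpa, the centromeric histone, stood at 58.2 and 58.7 against 109.7 and 86.2 CPM, and it was the 1 of 38 cell cycle genes with an unadjusted p under 0.05. The median of the cell cycle list was 0.0939, and it took either sign when 1 library was left out, from -0.22 without WT library 1 to 0.56 without WT library 2.

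Of the 10 genes with the smallest p in the lower direction 9 are described, led by transport, signalling and immune genes. Slc16a10 (chromosome 10, 40033532 to 40142270), a carrier of aromatic amino acids, stood at 26.3 and 19.9 CPM in WT and 9.75 and 10.8 CPM in knockout-labelled libraries (log2 fold change -1.17, SE 0.16, adjusted p = 0.166 in edgeR and 1.07e-05 in DESeq2). Tnf (chromosome 17, 35199367 to 35202007), the inflammatory cytokine, stood at 23.4 and 18 against 8.56 and 9.63 CPM (log2 fold change -1.19, SE 0.20, adjusted p = 0.166 in edgeR and 0.000402 in DESeq2). Clec4d, a lectin receptor for mycobacterial glycolipid, stood at 67.7 and 55.1 against 34 and 37 CPM (log2 fold change -0.79, SE 0.12). In each of these the groups did not overlap. H2-M2, a nonclassical class I molecule, stood at 71.4 and 52.2 against 28.2 and 32.4 CPM (log2 fold change -1.03, SE 0.17). Ampd3, AMP deaminase, stood at 6.41 and 6.89 against 3.21 and 2.75 CPM. Spic, a transcription factor of iron-recycling macrophages, stood at 139 and 145 against 109 and 99.1 CPM. The other 3 had smaller differences: Bcl2l1, which encodes the survival protein Bcl-xL (-0.56), the small GTPase Arf2 (-0.56) and the mitochondrial carrier Slc25a25 (-0.47), all on the log2 scale. DESeq2 called 7 of the 9, the exceptions being Slc25a25 (adjusted p = 0.0783) and Spic (adjusted p = 0.0539).

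Some costimulatory ligands lay higher. Of 16 costimulation genes 5 had an unadjusted p under 0.05, all higher, 8 were higher and 0 lower without overlap (50% against 22.6% of all genes), and 8 overlapped. By fold change 10 were above 0 and 6 below, with a median of 0.17. Cd80 stood at 92.1 and 92.9 CPM in WT and 192 and 146 CPM in knockout-labelled libraries (log2 fold change 0.87, SE 0.27), and Cd86, the other ligand of CD28, at 170.2 and 174 against 274 and 228 CPM (log2 fold change 0.54, SE 0.13). Tnfsf4, the OX40 ligand, stood at 80.6 and 66.9 against 141 and 109.9 CPM (log2 fold change 0.77, SE 0.18). DESeq2 called these 3 (adjusted p = 0.0386, 0.0385 and 0.0193). Tnfsf9, the 4-1BB ligand, was at 10.6 and 11.9 against 18.7 and 14.9 CPM, and Icosl at 99.2 and 112 against 145 and 115 CPM. Cd40, by contrast, overlapped at 166 and 222 against 193 and 179 CPM. The count of 5 fell without WT library 1 or without knockout-labelled library 1, as did the count over all genes. The list median ranged from 0.060 to 0.33 when 1 library was left out. Inhibitory ligands and receptors went both ways: of 20, 2 were higher and 3 lower at an unadjusted p under 0.05 (25% against 10.2% of all genes). Without overlap 8 were higher (40% against 22.6%) and 5 lower (25% against 23.3%).

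Tnf was the 1 inflammatory cytokine gene of 16 with an unadjusted p under 0.05. Il1b stood at 630.1 and 707 CPM in WT and 625 and 606 CPM in knockout-labelled libraries, and Il6 at 37.7 and 38.6 against 35 and 36.4 CPM. Il12b, the shared subunit of IL-12 and IL-23, was at 819 and 1021 against 1276 and 1044 CPM. Il1b and Il6 lay lower and Il12b higher without overlap, by small amounts (-0.12, -0.096 and 0.33 on the log2 scale). Over the 16 proinflammatory cytokine genes 2 were higher and 3 lower without overlap, the fold changes ran from -1.19 to 1.01, and the median was -0.12. The 22 NF-kB subunits and feedback genes had 0 at that p, with a median of 0.018. Without overlap 9 of them were higher (40.9% against 22.6% of all genes) and 3 lower (13.6% against 23.3%). Of 23 genes of TLR4 sensing 2 had an unadjusted p under 0.05, both lower (8.7%, below the 10.2% of all genes). Tlr4 overlapped at 22.9 and 15.5 against 12.5 and 17.3 CPM. Of 20 other Toll-like and NOD-like receptor genes 4 were lower and 1 higher, and without overlap 11 were lower (55% against 23.3% of all genes) and 3 higher (15% against 22.6%). The count of 4 fell without WT library 1 or without knockout-labelled library 1, as did the count over all genes. The 1 higher gene lost that p without WT library 1 or either knockout-labelled library. When 1 library was left out the list median ranged from -0.42 to -0.195. Tlr1, which pairs with TLR2, was the one that DESeq2 called (64.5 and 65.2 against 37.7 and 47.3 CPM). The core maturation genes Ccr7 (7332 and 7447 against 5917 and 6861 CPM) and Cd274, which encodes PD-L1 (927 and 803 against 698 and 874 CPM), had log2 fold changes of -0.21 and -0.14. Among transcription factors Irf4, needed for migration of type 2 dendritic cells, lay higher at 52.3 and 51.8 against 89.2 and 77.5 CPM (log2 fold change 0.68, SE 0.12).

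**Figure D3:**
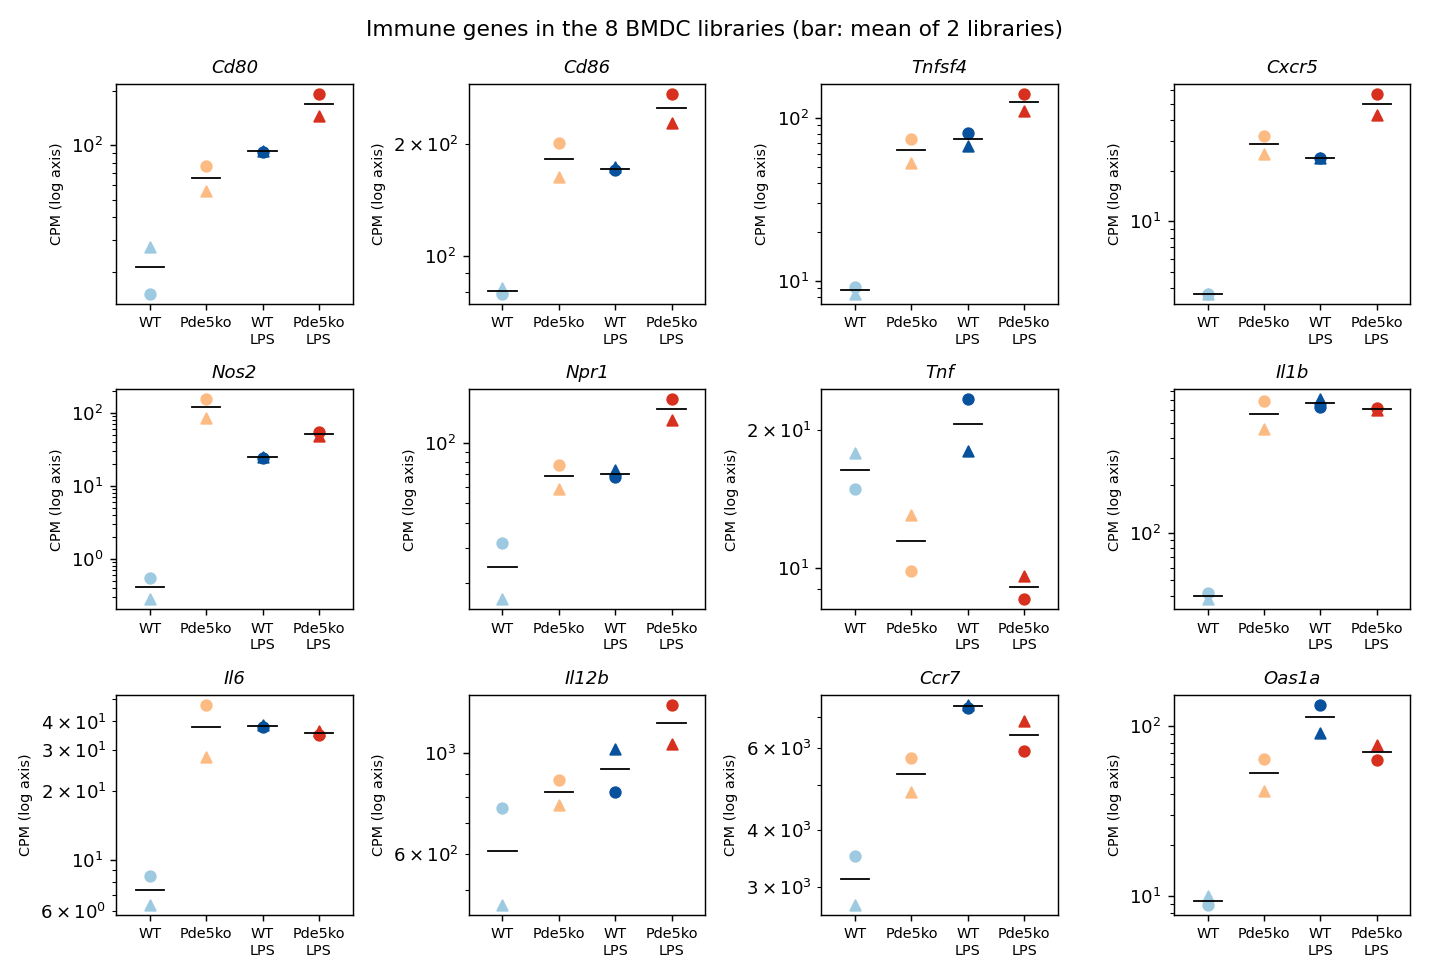
Each panel gives the CPM (log axis) of 1 gene in the 8 BMDC libraries; circles are library 1, triangles library 2 and bars the mean of 2 libraries. With LPS, Cd80, Cd86, Tnfsf4, Cxcr5, Nos2 and Npr1 lie higher under the knockout label without overlap, as does Il12b by a smaller fold change (0.33). Tnf, Oas1a, Il1b, Il6 and Ccr7 lie lower without overlap, with log2 fold changes of -1.19, -0.67, -0.12, -0.096 and -0.21.

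Genes of the type I interferon response lay slightly lower. Of 39 type I interferon response genes 4 had an unadjusted p under 0.05, all lower, a share near that of all genes (10.3% against 10.2%). Without overlap 16 were lower and 1 higher (41% against 23.3% of all genes lower), and the median was -0.33. Oas1a, an antiviral synthetase, stood at 134 and 91.7 CPM in WT and 63.5 and 78.1 CPM in knockout-labelled libraries (log2 fold change -0.67, SE 0.24), and its paralog Oas1g at 47.7 and 28.7 against 15.9 and 21.4 CPM. In both genes WT library 1 was the highest, and the list's summed level was 11510 and 8157 CPM in WT against 7461 and 8307 CPM under the knockout label. Leaving out 1 library at a time moved the median between -0.53 and -0.05. Ifnb1, interferon beta itself, was counted at most 1 time in any of the 8 libraries and was not tested. The 25 genes of the interferon-gamma list, mostly GTPases, had 0 at an unadjusted p under 0.05, and 6 were higher (24% against 22.6% of all genes) and 0 lower without overlap, with a median of -0.081.

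More chemokine ligands and class I genes lay lower than higher. Of 23 chemokine ligands 3 had an unadjusted p under 0.05 (13% against 10.2% of all genes), all lower. Without overlap 12 were lower (52.2% against 23.3%) and 2 higher. Ccl9, a chemoattractant of myeloid cells, stood at 52.5 and 38.7 against 13.9 and 21.4 CPM (log2 fold change -1.37, SE 0.38, DESeq2 adjusted p = 0.00124). Of 24 class I pathway genes 2 had an unadjusted p under 0.05 (8.33%, below the 10.2% of all genes), both lower. Without overlap 15 were lower (62.5% against 23.3%) and 0 higher, and the median was only -0.15. Calr, the chaperone calreticulin of the peptide-loading complex, stood at 571 and 655 against 396 and 440.3 CPM. Of 19 class II genes 2 were lower and 1 higher at an unadjusted p under 0.05 (15.8% against 10.2% of all genes). Without overlap 7 were lower (36.8% against 23.3%) and 3 higher (15.8%). H2-Ab1, a class II beta chain, overlapped at 1159 and 1913 against 1227 and 1093 CPM.

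Lysosomal genes lay lower as a group. Of 33, 13 had an unadjusted p under 0.05, all lower, 25 were lower and 0 higher without overlap (75.8% against 23.3% of all genes), and the median was -0.41. DESeq2 and edgeR called 0 of them. Gaa, the acid glucosidase that degrades glycogen, stood at 114 and 108 CPM in WT and 75.5 and 88.6 CPM in knockout-labelled libraries (log2 fold change -0.44, SE 0.11). Grn, progranulin, stood at 731 and 628 against 442 and 558 CPM, and Ctsd, the aspartic protease cathepsin D, at 951 and 627 against 279 and 527 CPM. Ctsd varied more between libraries of 1 group than Gaa or Grn. The count of 13 fell without WT library 1 or without knockout-labelled library 1, as did the count over all genes. It rose without either library 2. The list median ranged from -0.54 to -0.27 when 1 library was left out.

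Antioxidant genes under the transcription factor NRF2 lay lower in 26 of 27 cases by fold change, with a median of -0.28. Without overlap 20 were lower (74.1% against 23.3% of all genes) and 1 higher (3.7% against 22.6%). At an unadjusted p under 0.05 stood 7, all lower (25.9% against 10.2% of all genes). Nqo1, a quinone reductase and standard NRF2 target, stood at 6.29 and 7.56 against 2.5 and 2.13 CPM (log2 fold change -1.58, SE 0.51, DESeq2 adjusted p = 0.0288). Txnrd1, thioredoxin reductase, stood at 286 and 348 against 204 and 217 CPM, and Fth1, the ferritin heavy chain, at 4423 and 4123 against 2403 and 3343 CPM. All 3 were lower without overlap. The count of 7 fell without either WT library or knockout-labelled library 1 and rose without knockout-labelled library 2. The count over all genes moved the same way. When 1 library was left out the list median ranged from -0.36 to -0.22. Oxidative phosphorylation genes lay close to 0 (32 tested, 3 lower at an unadjusted p under 0.05, median -0.09). By fold change 26 of the 32 lay below 0, and without overlap 10 were lower (31.2%) and 1 higher (3.12%). Cycs, cytochrome c, was the furthest of those named, at 40.6 and 47 against 30.1 and 31.1 CPM.

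Monocyte and macrophage markers lay lower beside these lists. Of 26 monocyte and macrophage markers 5 had an unadjusted p under 0.05, all lower, 12 were lower and 0 higher without overlap (46.2% against 23.3%). Their median was -0.64, and it was -0.20 without knockout-labelled library 1 and -1.24 without knockout-labelled library 2. Their summed level was 9634 and 6160 CPM in WT and 2968 and 5808 CPM in knockout-labelled LPS libraries, so WT library 2 and knockout-labelled library 2 lay close together. All 26 markers had counts in each of the 4 LPS libraries. By fold change 20 of the 26 lay below 0 and 6 above, Ccr2 and Chil3 among the 6, and the values ran from -1.06 to 0.53. Of those below 0, Adgre1, which encodes F4/80, stood at 179 and 147 against 70.7 and 124 CPM, and Cd68 at 443 and 259 against 145 and 255 CPM. Csf1r, the receptor for macrophage colony-stimulating factor, stood at 472 and 414 against 279 and 375 CPM. The count of 5 fell without WT library 1 or without knockout-labelled library 1, as did the count over all genes. It rose without either library 2. In bulk RNA, fewer cells of a type and less RNA per cell cannot be told apart. The part of these markers in the lysosomal, lectin and lipid gene differences was not tested. Of 24 C-type lectin genes 5 had an unadjusted p under 0.05, all lower (20.8% against 10.2% of all genes). Without overlap 10 were lower (41.7% against 23.3%) and 1 higher (4.17%). Of 25 lipid uptake and efflux genes 5 were lower and 2 higher at that p (28%). Without overlap 12 of them were lower (48%) and 4 higher (16%). Pparg, a regulator of lipid handling, stood at 3.98 and 2.62 against 0.416 and 1.38 CPM. Markers of some other cell types lay the other way, read against the 22.6% of all genes higher and 23.3% lower without overlap. Of 10 natural killer and cytotoxic genes 5 were higher (50%, median 0.75) and 0 lower. Of 11 progenitor genes 5 were higher (45.5%, median 0.37) and 0 lower. Of 13 T cell genes 6 were higher (46.2%, median 0.24) and 2 lower (15.4%). Their summed level overlapped, at 361 and 233 CPM in WT and 244 and 270 CPM under the knockout label. The share of neutrophil genes that were higher was near that of all genes (4 of 15, 26.7%), with 0 lower and a median of 0.14. Of 11 plasmacytoid dendritic cell genes 2 were higher (18.2%, below that share) and 1 lower (9.09%), with 10 above 0 by fold change. When 1 library was left out the medians ranged from 0.18 to 0.86 for natural killer, from 0.064 to 0.56 for progenitor and from 0.23 to 0.72 for neutrophil genes. The median of T cell genes took either sign, from -0.062 to 0.39. The low-count filter was applied anew in each of these fits, so their medians need not rest on the same members as the main ones. Core dendritic cell genes had a median of -0.0118, with 1 of 13 at an unadjusted p under 0.05. Of 16 tested type 1 dendritic cell markers 3 were lower and 2 higher at that p (31.2% against 10.2% of all genes). Without overlap 6 were lower (37.5%) and 2 higher (12.5%). Their median was -0.38, and it ranged from -0.61 to 0.086 when 1 library was left out. The 13 type 2 markers had 2 lower and 2 higher at that p (30.8%), 3 each way without overlap, and a median of 0.27. Xcr1, a receptor of type 1 cells, was scarce, at 2.08 and 3.05 CPM in WT and 1.55 and 1.5 CPM under the knockout label.

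**Figure D4:**
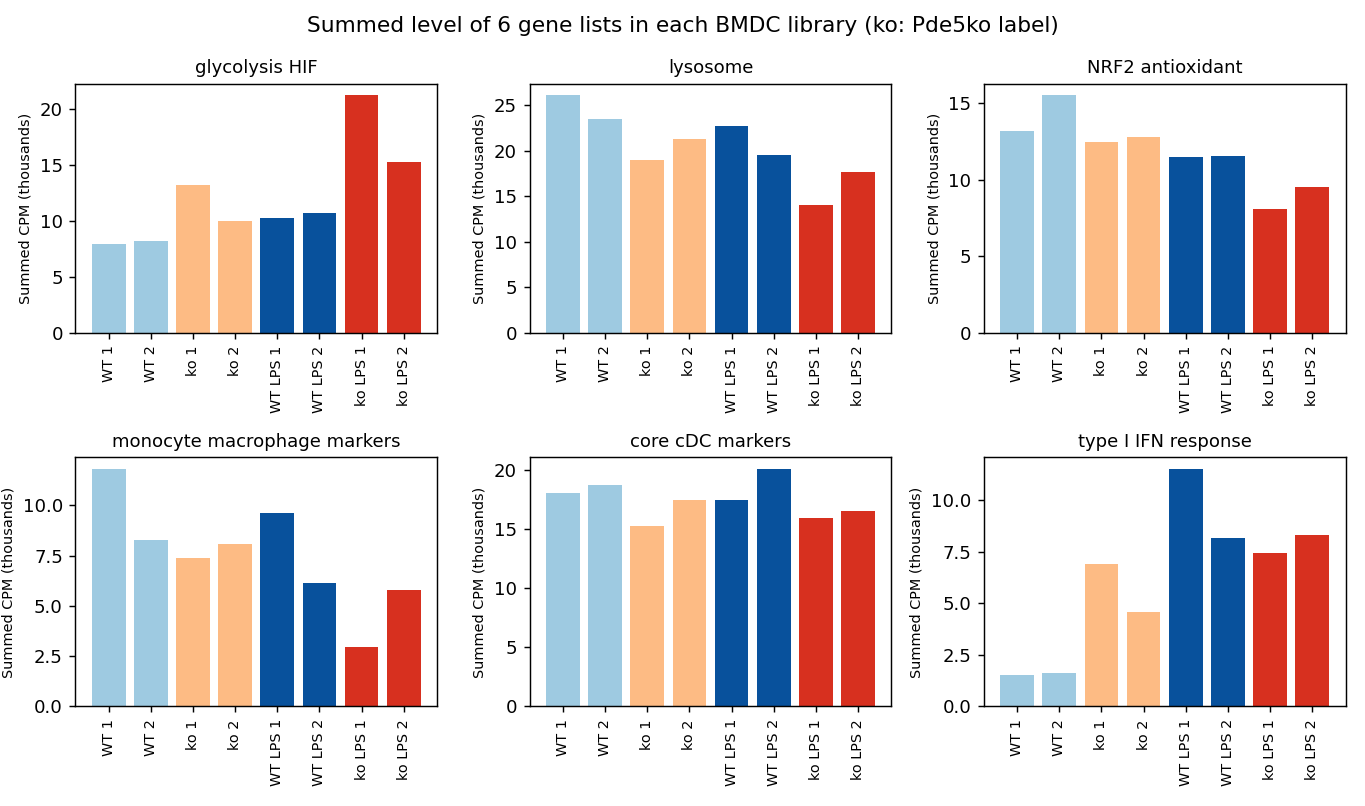
Bars give the CPM summed over the tested members of 6 lists in each of the 8 BMDC libraries (pale, no LPS; dark, LPS; blue, WT; orange and red, knockout label). The glycolysis and HIF sum is highest in the 2 knockout-labelled LPS libraries (21210 and 15260 CPM), and the macrophage sum is lowest in knockout-labelled LPS library 1 (2968 CPM).

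Gene lists around the pathway that the knockout label names had medians near 0, with single members on either side. For the 14 tested genes with phosphodiesterase symbols, not all specific to cyclic GMP, the median was -0.03. At an unadjusted p under 0.05 stood 1 higher and 1 lower (14.3% against 10.2% of all genes). These were Pde4d, which degrades cyclic AMP (26.4 and 28.1 against 35.7 and 34.4 CPM), and Pde6d (36 and 35.6 against 30.3 and 29.3 CPM). Of 16 nitric oxide and cGMP signalling genes 2 were higher and 2 lower (25% against 10.2% of all genes), and the median was 0.03. The 2 lower ones did not reach that p without WT library 1 or without knockout-labelled library 1. Fewer of all genes reached it in these fits too. Nos2 (chromosome 11, 78920787 to 78960226), the inducible nitric oxide synthase, stood at 24.4 and 24.6 CPM in WT and 53.9 and 47.7 CPM in knockout-labelled libraries (log2 fold change 1.05, SE 0.27, adjusted p = 0.317 in edgeR and 0.00671 in DESeq2). Npr1 (chromosome 3, 90450591 to 90465928), the natriuretic peptide receptor that makes cyclic GMP, stood at 67.6 and 73 against 165 and 129.9 CPM (log2 fold change 1.07, SE 0.28, adjusted p = 0.333 in edgeR and 0.00442 in DESeq2). DESeq2 called both, which is 12.5% of the list against 1.15% of all genes. Gch1, which makes the cofactor of nitric oxide synthases, lay lower at 26.4 and 23.7 against 16.8 and 18.8 CPM, and Abcc5, an exporter of cyclic nucleotides, at 60.8 and 34.8 against 25.3 and 32.9 CPM. Of 19 genes of AMP-activated kinase signalling 3 were higher and 0 lower at that p (15.8% against 10.2% of all genes). Without overlap 5 were higher and 5 lower (26.3% each), and the median was -0.01.

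The genes were also set beside the same label difference without LPS, which shares no library with the LPS comparison. Without LPS 2357 genes (18%) passed in edgeR, 1575 higher (12%) and 782 lower (5.98%). The split depended on scaling: with library size alone it was 1282 higher and 1301 lower, and the median of all genes moved to -0.115. Of the 1330 genes with an unadjusted p under 0.05 with LPS, 304 (22.9% of them, and 12.9% of the 2357) were also called without LPS, 243 in the same direction and 61 in the opposite one. Of the 35 glycolysis and HIF genes, 9 were called higher and 0 lower without LPS, with a median of 0.47. Vegfa was among them (log2 fold change 1.97, adjusted p = 0.00353), as were P4ha2 (2.04, adjusted p = 0.017) and Slc16a3 (1.53, adjusted p = 0.0291). Pdk1 was not, at 25.7 and 26.4 CPM in WT and 36.7 and 19.5 CPM under the knockout label. Of the interferon genes, which lay slightly lower with LPS, 39 of 39 were called higher without LPS, with a median of 2.27.

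**Figure D5:**
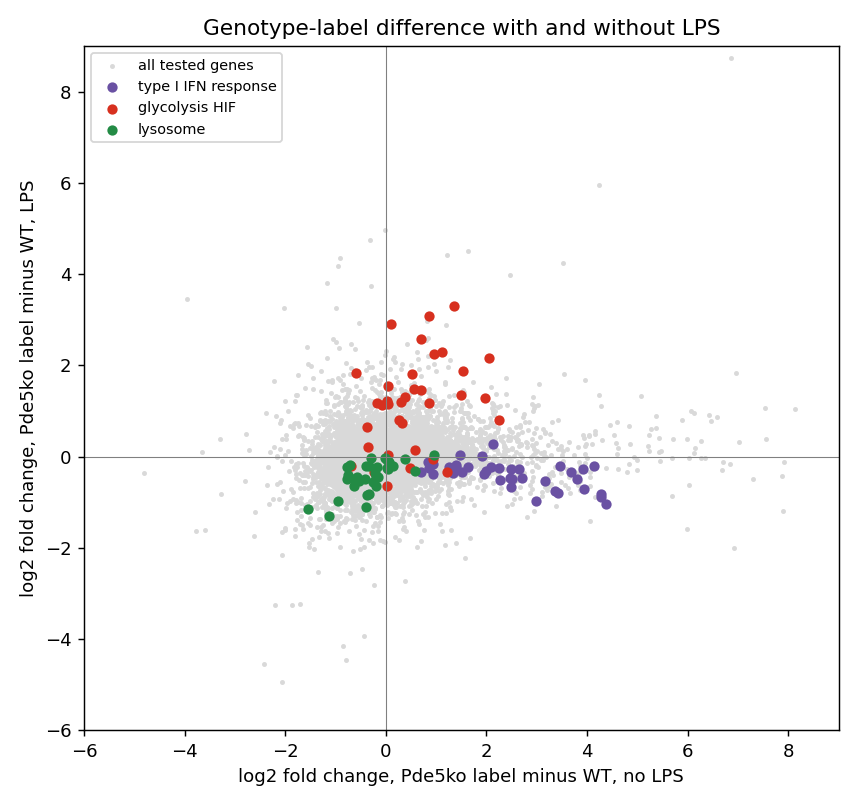
Each point is a tested gene, with its log2 fold change between genotype labels without LPS on the x axis and with LPS on the y axis; coloured points are 3 gene lists, and 1 gene lies outside the axes. Glycolysis and HIF genes (red) spread upwards, lysosomal genes (green) lie low on the y axis, and interferon genes (purple) spread to the right at y values just below 0.

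The interaction, the label difference with LPS minus that without, passed in 585 genes (4.48%), 74 higher (0.566%) and 511 lower (3.91%). Aldoc lay higher under the knockout label with LPS and lower without (27.5 and 27.4 CPM in WT and 17.3 and 16.4 CPM under the knockout label without LPS; interaction 3.17, adjusted p = 0.0129). Slc2a3 (2.41, adjusted p = 0.0369), Zfp395 (2.51, adjusted p = 0.0189) and Pgam1 (1.36, adjusted p = 0.0274) passed in the same direction. For Nos2 the label difference was smaller with LPS than without, where it stood at 0.553 and 0.281 CPM in WT and 154 and 83.7 CPM under the knockout label (interaction -7.07, adjusted p = 0.00586). This count ranged from 58 to 410 when 1 LPS library was left out, with 58 without knockout-labelled library 1, 137 without WT library 1 and 274 without WT library 2.

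By position, the genes did not gather near Pde5a. Of 59 tested genes within 10 Mb of it, 6 had an unadjusted p under 0.05 (10.2%, the same share as over all genes), and DESeq2 called 0. Over the autosomes and X, the share per chromosome ran from 7.74% on chromosome 18 to 12.2% on chromosomes 8 and 16.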

How the data were processed

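The authors deposited a table of unnormalized counts for each gene symbol and BMDC library. The submitters' processing notes name fastp 0.12.4, HISAT2 2.2.1 and featureCounts 2.0.1, without their order, and the mm10 build. Annotation, strand setting and handling of multi-mapping reads are unknown here, and the labels' RNA extraction step describes a tissue other than these cells. All columns were mapped by name, and 0 were left over.

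The 8 BMDC libraries entered 1 edgeR 4.0.16 fit (R 4.3.3) with a mean per group: filterByExpr defaults (minimum count 10), TMM scaling, robust glmQLFit, glmQLFTest and Benjamini-Hochberg adjustment over 13072 genes, called at 0.05. The SE was the log2 fold change divided by the root of F. DESeq2 1.42.0, limma-voom (limma 3.58.1), other scalings and filters, a replicate block and leaving out each LPS library were alternatives. CPM values were scaled by TMM. The steps were tested on simulated counts. Replicates differed by more than counting noise (chi-square per degree of freedom 14.87 to 25.63), so none was counted as a duplicate.

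The members, the 51 gene lists and the rule for named genes were chosen with earlier results of these data known. The rule took called genes, or with fewer than 5 the 10 with the smallest p per direction at a mean log2 CPM of at least 2, leaving out unnamed genes, and up to 2 members per list and direction. Because 0 were called, the second form applied. 1 gene it named is not reported here. All members of the glycolysis and HIF list, and some genes of other lists, were described after their values were seen. Lists were described by counts and medians without a set test. Positions came from RefSeq on GRCm38.p6, the assembly of mm10, for 13039 genes. Of those used in the text, Pde6d, Cxcr5, Slc25a25, Ampd3, Hk3, Pfkp, Pfkm, Tpi1, Slc16a3, Ankrd37, Car9, Tnfsf9, Il1b, Cd274, Zbtb46, Itga4 and Txnrd1 overlap another tested gene and are uncertain to that extent.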

Additional observations from a re-analysis of the deposited data

Results flagged for a closer look

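For 27 genes used in the text the difference between genotype labels itself differed between the LPS libraries and the unstimulated ones, by the interaction term of edgeR's fit (adjusted p under 0.05). All values below are the log2 label difference with LPS minus that without. The unstimulated knockout-labelled libraries, which stood close to the LPS libraries, enter each of them, and their part in these values was not tested.

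Among metabolic and HIF genes the interaction was above 0 for Aldoc (3.17), Zfp395 (2.51), Slc2a3 (2.41) and Pgam1 (1.36). It was below 0 for Pfkfb3 (-1.55), Ddit4 (-1.46), an inhibitor of mTORC1, and Hif1a (-0.99).

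The cytokine and interferon genes among them lay higher under the knockout label without LPS, by more than they differed with it. The interaction was -3.97 for Il1b, -2.44 for Il6, -3.66 for Cxcl10, -5.41 for Oas1g, -3.16 for Oas1a, -3.17 for Fcgr1 and -2.02 for Sod2. For Nos2 it was -7.07 and for Gch1 -1.13.

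Among surface and signalling genes it was -2.09 for Tnfsf4, -1.88 for Cxcr5, -1.80 for Cd274, -0.91 for Cd40, -0.83 for Zbtb46, -1.60 for Dusp2, -1.01 for Ifi30, -1.11 for H2-M2 and -0.66 for Bcl2l1. It was above 0 for Icosl (0.95) and for the neutrophil granule gene Ngp (1.80).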

How the results depend on the processing

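The count of 0 genes called with LPS was also 0 under RLE, upper-quartile and library-size scaling, with a minimum of 10 CPM in 2 libraries, with limma-voom, with the 4 LPS libraries alone and with 1 symbol per identical count set. It was 56 with no low-count filter (42 higher, 14 lower) and 150 with DESeq2 (113 higher, 37 lower). Leaving out 1 LPS library gave 0 to 65 genes (0 to 51 higher, 0 to 14 lower), with 65 without knockout-labelled library 2. The labels do not say what a replicate number stands for. Same-numbered libraries of the other 3 groups deviated together (correlations 0.245 to 0.408), while those of the knockout-labelled LPS group deviated opposite to each of them (-0.115, -0.274 and, against WT with LPS, -0.403). The replicate block gave 2 calls, both higher (Mgarp and Ak4). With the numbers of the knockout-labelled LPS libraries crossed, a pairing chosen after seeing the data, the block gave 14 calls (8 higher, 6 lower), 3438 without LPS (1413 lower) and 1598 for the interaction (501 higher, 1097 lower).

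Without LPS the count of lower genes was 782, and 1301 with library size alone. The interaction count of 585 was 948 with no filter (193 higher) and 1075 with DESeq2 (253 higher, 822 lower), and leaving out 1 LPS library gave 58 to 410 (1 to 75 higher, 57 to 335 lower). Among genes used in the text, 9 took the other sign when 1 library was left out, all of them with overlapping libraries: Pde5a (-0.72 to 0.70), Hk1 (-0.0019 to 0.28), Hif1a (-0.23 to 0.10), Adm (-0.76 to 0.69), Car9 (-0.083 to 0.17), Cd40 (-0.25 to 0.16), Cd274 (-0.31 to 0.013), Zbtb46 (-0.092 to 0.027) and Cd14 (-0.0026 to 0.53). The cause of these shifts was not tested. With 2 libraries per group, differences near the median SE of 0.171 on the log2 scale could not be told from 0. Larger differences with LPS did not pass in the main edgeR fit either, where the smallest adjusted p was 0.166.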

Other observations

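In pairs joined by "against", WT comes first and the knockout label second. Some genes not named above had an unadjusted p under 0.05 with LPS. Scd2, a fatty acid desaturase, stood at 62.2 and 75.3 CPM in WT and 151 and 106 CPM in knockout-labelled libraries (log2 fold change 0.90, SE 0.23), and Upp1, which splits uridine, at 1.72 and 3.84 against 12.9 and 8.88 CPM (log2 fold change 1.97, SE 0.42). Both were called by DESeq2. The integrin chains went opposite ways, with Itgb2, the shared chain of the leukocyte integrins, at 358 and 321 against 197 and 257 CPM and Itga4, the alpha chain of VLA-4, at 955 and 874 against 1278 and 1186 CPM. Of 10 natural killer and cytotoxic genes 4 were higher and 0 lower at that p (40% against 10.2% of all genes). Among them was Klrd1, which encodes CD94, at 4.16 and 4.94 against 16.2 and 9.06 CPM. Of 11 progenitor genes 2 were higher and 0 lower (18.2%), Myb among them at 7.3 and 8.85 against 15.1 and 13.8 CPM. Apol7c, of the apolipoprotein L family, stood at 4664 and 4507 CPM in WT and 2213 and 2836 CPM in knockout-labelled libraries (log2 fold change -0.86, SE 0.18, DESeq2 adjusted p = 0.000248), and it was the 1 member of the migratory dendritic cell list that DESeq2 called.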
